A study of Caenorhabditis elegans with 6 samples.

Results

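The genes described here encode small secreted peptides of the nematode Caenorhabditis elegans. They were taken from the deposited tables by gene symbol alone: symbols that begin with cnc-, fip- or fipr-, together with nlp-24 to nlp-34. The symbol rule gave 46 of 18811 genes, made up of 10 cnc genes, 25 fip and fipr genes and 11 nlp genes. Whole worms, synchronized as adults, were sequenced in 6 libraries, with 3 per diet. At the fourth larval stage the worms had been moved to plates with either Escherichia coli BW25113, a laboratory strain, or a mutant E. coli strain that the labels call purE, after a bacterial gene of purine synthesis. The sources used here give neither the worm genotype nor the parent of the mutant strain. They also do not say whether libraries of a diet came from separate worm cultures, so p-values measure only the spread between these samples.

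The cnc genes encode caenacins and the nlp genes encode neuropeptide-like proteins, and many products of both families are short, glycine-rich and tyrosine-rich peptides with a signal sequence. In the worm, nlp-29 and its neighbours are known as antimicrobial peptide genes of the epidermis that are switched on by the fungus Drechmeria coniospora and by wounding through a p38 kinase cascade and the factors STA-2 and SNF-12. High salt also induces nlp-29, largely without that cascade. The gene cnc-2 is known to answer fungal infection through the TGF-beta ligand DBL-1, which comes from neurons. The fip genes were named as fungus-induced proteins and the fipr genes as relatives of them, and the function of most of them is not established.

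The members were small and clustered. All 46 were matched by symbol to an annotation of the build WBcel235, and all were annotated as protein coding. The median encoded length was 72 residues for cnc, 74 for fip and fipr, and 74 for the nlp genes, with a full range of 50 to 191 residues. Chromosome V held 8 of the 10 cnc genes, 13 of the 25 fip and fipr genes and 10 of the 11 nlp genes. When members less than 20000 bases apart were joined, 32 of the 46 fell into 10 clusters. The cnc cluster (chromosome V, 1442342 to 1450183) held cnc-11, cnc-5, cnc-4, cnc-3 and cnc-2. The nlp cluster (chromosome V, 3978825 to 3989770) held nlp-34, nlp-31, nlp-30, nlp-29, nlp-28 and nlp-27, with no other protein-coding gene inside its 10.9 kb. The largest fipr cluster (chromosome V, 10220981 to 10239961) held fipr-5, fipr-9, fipr-4, fipr-7, fipr-6 and fipr-8 among 12 protein-coding genes. The pairs fipr-10 with fipr-11, fipr-1 with fipr-2, nlp-25 with nlp-26, and fip-5 with cnc-8 (chromosome X, 10302741 to 10306951) were also neighbours.

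Summed over genes, a library held from 21880627 to 22607939 estimated counts, and a floor of 3 counts, which a library with a count of 0 could still hide, was worth 0.110 to 0.160 CPM (the count scaled to library size with TMM factors), for counting error only. The libraries of the purE diet were unlike each other. For 24 of the 27 members that could be tested, the highest of the 6 values lay in purE replicate 2, as it did for 36.02% of all 12144 genes tested. Many results that rest on purE replicate 2 are also given without it, but not all. Markers of epidermis, intestine, neurons, pharynx and body wall muscle were all detected, with 0 of the measured markers of these 5 lists at 0 in every library.

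Levels can be set beside each other between genes only per length, as deposited FPKM values. On BW25113 the gene nlp-24 (identifier 179594, chromosome V, 11616376 to 11616828), a neuropeptide-like gene of the YGGW-amide family, stood at 144, 198 and 285 FPKM, above every other member. Its mean was 209 ± 71.0 FPKM (SD, n = 3). Next in order of mean came fipr-2 with 42.2 ± 21.7, cnc-8 with 33.3 ± 3.79, nlp-33 with 31.7 ± 5.40, fipr-1 with 29.3 ± 10.1, nlp-27 with 29.1 ± 8.56, nlp-26 with 22.9 ± 4.27 and fip-2 with 17.8 ± 4.92 FPKM (SD, n = 3 each). From fipr-2 downwards each of these genes overlapped the next in the order, so in the deposited values only the first place was separate. The place of nlp-27 is uncertain. It had 732, 1139 and 1362 counts on BW25113 for 19.8, 30.9 and 36.6 FPKM. For fipr-2, 252, 309 and 633 counts gave 26.8, 32.95 and 67.0 FPKM, although nlp-27 has the shorter annotated span. The lengths behind the FPKM values are not given, so whether nlp-24 stood apart from nlp-27 is not settled. In all, 11 of the 46 members had a mean above 10 FPKM on BW25113, and 17 had a mean below 1 FPKM. The classical reporters were not among the abundant members: nlp-29 stood at 9.83, 4.21 and 5.04 FPKM, and cnc-2 at 3.75, 4.10 and 1.70 FPKM. All members together took 0.0169%, 0.0215% and 0.0265% of the counts in the BW25113 libraries, against 0.0275%, 0.0722% and 0.0458% in purE replicates 1, 2 and 3.

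**Figure D1:**
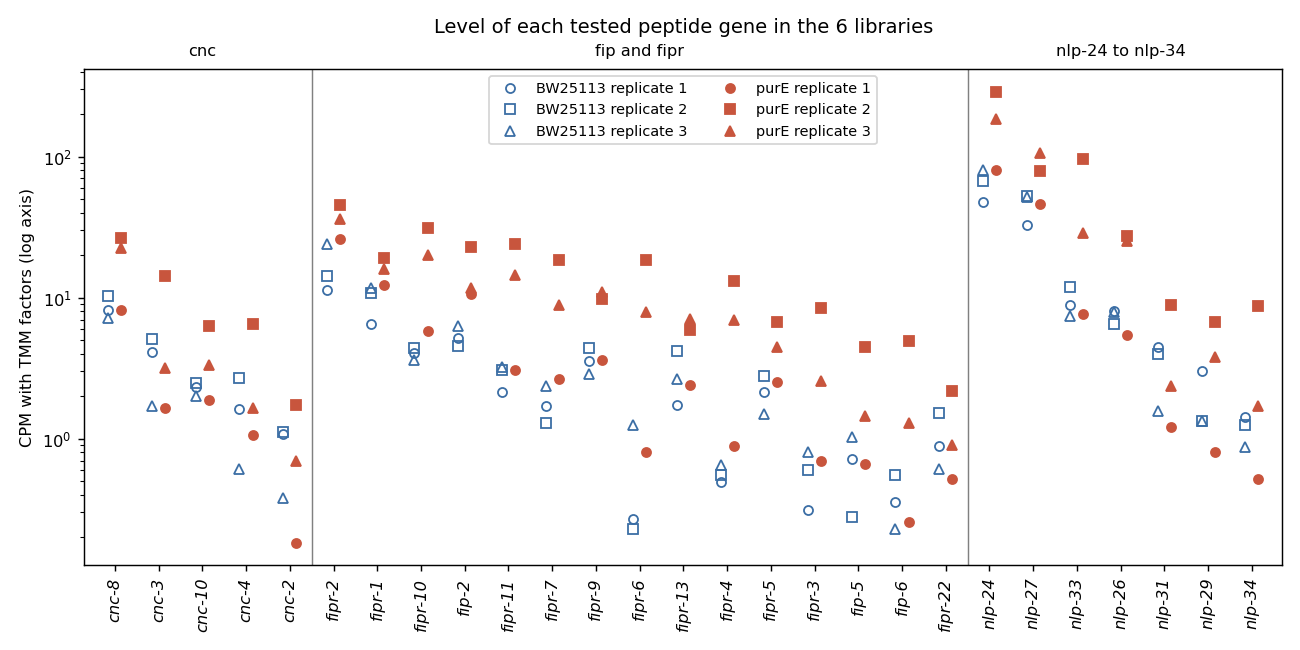
Level of each of the 27 tested members in every library, as CPM with TMM factors on a log axis, with open blue marks for BW25113 and filled red marks for purE and the shape giving the replicate. Filled squares (purE replicate 2) are the highest mark for 24 members, and filled circles (purE replicate 1) often lie among the open marks.

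The comparison of diets asked which members differ in RNA level between worms fed purE and worms fed BW25113. Whole worms were used, so fewer cells of a type and less RNA per cell cannot be told apart. Every tested member had a positive log2 fold change (purE over BW25113), from 0.016 for cnc-2 to 3.92 for fipr-6, but none passed the adjusted threshold of 0.05. With the size factors of DESeq2, with library size alone, or with the 100 most abundant genes left out, cnc-2 was negative and the other 26 were positive, and limma-voom gave 25 positive values of 27. In edgeR's quasi-likelihood test 0 of the 27 members were called, with a smallest adjusted p of 0.129, beside 0.0% of all 12144 genes tested. An unadjusted p under 0.05 was found for 15 of the 27 members, all higher, against 12.7% of all genes tested in that direction, and for 0 members in the lower direction, against 3.81%. DESeq2 called 9 of the 27, all higher, against 6.26% of all genes. In limma-voom 0 were called, and 7 members had an unadjusted p under 0.05, beside 1560 of all 12144 genes in either direction. For 7 members every purE library exceeded every BW25113 library, against 13.1% of all genes, and below them for 0 members, against 6.68%. These 7 were fip-2, fipr-1, fipr-2, fipr-4, fipr-7, fipr-10 and nlp-24. Of the 27 tested members, 22 reached the filter's level in every BW25113 library and 5 in only some. Of these 5, fip-5 and fipr-3 reached it in 2 BW25113 and 3 purE libraries, fipr-6 in 1 and 3, fip-6 in 1 and 2, and cnc-2 in 2 and 2. The filter needed 3 libraries, so fip-5, fipr-3 and fipr-6 met it through purE, and none of the 5 met it through BW25113. The 15 members above include fip-6, fipr-3 and fipr-6, and the 9 called by DESeq2 include fipr-3 and fipr-6.

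These counts rested on single libraries. Without purE replicate 1, edgeR tested 31 members and called 16, all higher, against 14.5% of all genes called in either direction, and in 25 members both remaining purE libraries exceeded all BW25113 libraries, against 27.4% of all genes tested. Of the 16, fipr-8, nlp-25 and nlp-30 lay below the filter's level of 0.447 CPM in every BW25113 library. They entered this fit through purE replicates 2 and 3 alone, and are also among the 25. Without purE replicate 2 edgeR called 0, and 21 of 27 values were positive. An unadjusted p under 0.05 was found for 9 members, all higher, beside 1365 of all 12370 genes tested in either direction. Without BW25113 replicate 1 it was found for 9 of 30 members, all higher, beside 1712 of all 12717 genes in either direction.

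**Figure D2:**
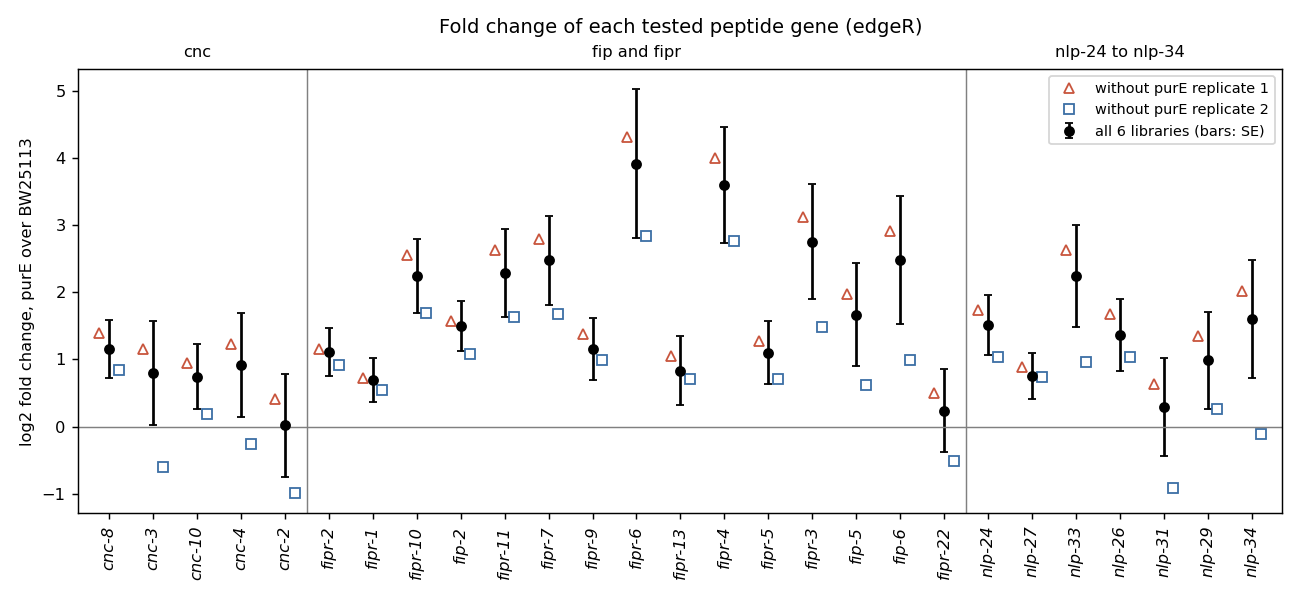
Log2 fold change of purE over BW25113 for each tested member (edgeR), with black points and SE bars for all 6 libraries, open triangles without purE replicate 1 and open squares without purE replicate 2. All points with 6 libraries lie above 0, and without purE replicate 2 the members cnc-2, cnc-3, cnc-4, fipr-22, nlp-31 and nlp-34 lie below it.

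Of the 7 tested nlp genes, 3 had an unadjusted p under 0.05, all higher, against 12.7% of all genes in that direction. They were nlp-24, nlp-26 and nlp-33, which lie outside the nlp-27 to nlp-34 cluster. The 4 tested genes inside the cluster, which holds the classical infection-inducible members, had log2 fold changes from 0.30 to 1.61. The abundant nlp-24 stood at 47.4, 67.0 and 80.2 CPM on BW25113 and at 80.3, 288 and 184 CPM on purE. The groups only just failed to overlap, since purE replicate 1 and BW25113 replicate 3 were almost equal, and they did overlap with the size factors of DESeq2. The log2 fold change was 1.51 ± 0.45 (SE), for which edgeR gave an adjusted p of 0.144 and DESeq2 one of 0.0334. It was 1.03 without purE replicate 2. The gene nlp-33 (chromosome V, 11147346 to 11147737) stood at 8.86, 11.9 and 7.36 CPM on BW25113 and at 7.72, 96.7 and 28.9 CPM on purE. Here purE replicate 1 lay inside the BW25113 range, and purE replicate 2 was the highest by far. Its log2 fold change of 2.24 ± 0.76 became 0.97 without purE replicate 2. The adjusted p from edgeR was 0.186 and that from DESeq2 was 0.0221. For nlp-26 (chromosome V, 19613461 to 19614534) the values were 8.06, 6.46 and 7.86 CPM on BW25113 and 5.44, 27.2 and 25.03 CPM on purE, so that purE replicate 1 was the lowest of all libraries and the other purE libraries were the highest. The log2 fold change was 1.36 ± 0.54, or 1.03 without purE replicate 2.

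In the nlp cluster itself, nlp-27 stood at 32.8, 52.5 and 52.0 CPM on BW25113 and at 45.9, 79.2 and 106 CPM on purE, with a log2 fold change of 0.75 ± 0.35 and purE replicate 1 inside the BW25113 range. The infection reporter nlp-29 (chromosome V, 3984425 to 3984847) stood at 3.04, 1.34 and 1.34 CPM on BW25113 and at 0.809, 6.76 and 3.80 CPM on purE. Its lowest and its highest value were both from purE libraries. The log2 fold change of 0.98 ± 0.72 had adjusted p-values of 0.509 (edgeR) and 0.543 (DESeq2), and was 0.26 without purE replicate 2. The neighbouring nlp-31, whose product is known for antimicrobial activity, stood at 4.48, 4.01 and 1.56 CPM on BW25113 and at 1.21, 8.82 and 2.35 CPM on purE. The lowest and the highest library were again purE replicates 1 and 2. Its log2 fold change was 0.30 ± 0.73 with all libraries and -0.91 without purE replicate 2. The neighbouring nlp-34, which was chosen after its values were seen, had 1.43, 1.25 and 0.877 CPM on BW25113 and 0.515, 8.66 and 1.71 CPM on purE. Its log2 fold change of 1.61 ± 0.88 became -0.11 without purE replicate 2.

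The cnc genes had the lowest median fold change of the 3 subfamilies. Of the 5 tested members, 1 had an unadjusted p under 0.05, in the higher direction, against 12.7% of all genes. DESeq2 called 0, against 6.26% of all genes called higher. With 0 free of overlap, the shares of all genes were 13.1% above and 6.68% below. Counts out of 5 genes are too small to be told apart from these shares. The most abundant, cnc-8 (identifier 181239, chromosome X, 10306595 to 10306951), stood at 8.24, 10.3 and 7.17 CPM on BW25113 and at 8.12, 26.5 and 22.6 CPM on purE. In purE replicates 2 and 3 it was above every BW25113 library, whereas purE replicate 1 lay inside their range. The log2 fold change was 1.152 ± 0.44, where edgeR gave an adjusted p of 0.232. Leaving out purE replicate 2 gave 0.84. For cnc-10 the values were 2.33, 2.49 and 2.02 CPM on BW25113 and 1.87, 6.28 and 3.32 CPM on purE, where replicate 1 was the lowest library. It had a log2 fold change of 0.74 ± 0.48 that was 0.18 without purE replicate 2.

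The 3 tested genes of the cnc cluster were high in purE replicate 2 alone. The gene cnc-3 stood at 4.12, 5.12 and 1.72 CPM on BW25113 and at 1.65, 14.3 and 3.16 CPM on purE, with a log2 fold change of 0.80 ± 0.78, or -0.60 without purE replicate 2. Its neighbour cnc-4 stood at 1.61, 2.68 and 0.610 CPM on BW25113 and at 1.07, 6.55 and 1.66 CPM on purE, with 0.92 ± 0.77, or -0.26 without that library. The TGF-beta target cnc-2 (chromosome V, 1449665 to 1450183) stood at 1.07, 1.11 and 0.381 CPM on BW25113 and at 0.184, 1.74 and 0.695 CPM on purE. Its log2 fold change was 0.016 ± 0.77, where edgeR gave an adjusted p of 0.992. Leaving out purE replicate 2 turned it to -0.99. For these 3 genes purE replicate 1 lay at or near the bottom of all libraries, together with BW25113 replicate 3.

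The fip and fipr genes held most of the members with a small p. Of 15 tested members, 11 had an unadjusted p under 0.05, all higher, against 12.7% of all genes in that direction. DESeq2 called 7, against 6.26%, and 6 were free of overlap with every purE library the higher, against 13.1%. These members are not separate observations. Among the 11, the genes fipr-2, fipr-4 to fipr-7 and fipr-9 to fipr-11 had reads shared within sets, as described below. The genes called by DESeq2 were fip-2, fipr-3, fipr-4, fipr-6, fipr-7, fipr-10 and fipr-11. The gene fip-2 (identifier 179283, chromosome V, 9067978 to 9068390) stood at 5.15, 4.52 and 6.33 CPM on BW25113 and at 10.7, 22.8 and 11.8 CPM on purE. Each purE library lay above all BW25113 libraries, purE replicate 2 farthest. The log2 fold change was 1.497 ± 0.37, or 1.07 without purE replicate 2, and the adjusted p was 0.129 from edgeR and 0.0120 from DESeq2. The estimated counts of fip-2 were whole in every library.

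The most abundant genes of this subfamily were fipr-2 and fipr-1, neighbours on chromosome V (12361301 to 12365869). The gene fipr-2 stood at 11.3, 14.3 and 24.1 CPM on BW25113 and at 26.2, 45.2 and 36.3 CPM on purE, with a log2 fold change of 1.11 ± 0.36. For fipr-1 the values were 6.535, 10.8 and 11.6 CPM on BW25113 and 12.2, 18.95 and 15.9 CPM on purE, with 0.70 ± 0.33. In both genes BW25113 replicate 3 was the highest of its diet and purE replicate 1 lay just above it. Further along the chromosome, fipr-10 (9914163 to 9914529) stood at 4.07, 4.38 and 3.62 CPM on BW25113 and at 5.84, 31.3 and 20.2 CPM on purE. The BW25113 libraries of fipr-10 were tightly grouped and the purE libraries were widely spread. Its log2 fold change was 2.24 ± 0.55, or 1.69 without purE replicate 2, with an adjusted p of 0.129 from edgeR and 0.00217 from DESeq2.

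The member with the smallest p was fipr-4 (chromosome V, 10228043 to 10228460). It stood at 0.492, 0.554 and 0.648 CPM on BW25113 and at 0.882, 13.04 and 6.90 CPM on purE. The log2 fold change was 3.60 ± 0.86, or 2.76 without purE replicate 2, with an adjusted p of 0.129 from edgeR and 0.000345 from DESeq2. On BW25113 the gene had between 10.96 and 17.1 estimated counts, and its reads were divided with neighbours, as described next.

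The deposited counts of some neighbouring members were coupled. In 13 of the 16 members with counts that were not whole, the values formed 4 sets whose sums were whole in all 6 libraries, to within 0.02 counts. The sets were fipr-1 with fipr-2, fipr-10 with fipr-11, fipr-4 to fipr-9, and nlp-27 to nlp-29. Values of single genes in a set depend on how the counting divided shared reads, and the sum of a set does not. The remaining genes of this kind, fipr-22, fipr-23 and fipr-24, formed no such set among the members.

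The set of fipr-4 to fipr-9 stood at 8.24, 9.23 and 9.002 CPM on BW25113 and at 10.5, 81.6 and 42.9 CPM on purE. Its purE libraries all lay above the BW25113 libraries, by a small margin in purE replicate 1 and a large one in the other purE libraries. The summed log2 fold change was 2.35 ± 0.62, or 1.60 without purE replicate 2, with an adjusted p of 0.129 from edgeR and 0.00340 from DESeq2. Inside the set, the log2 fold changes of the tested genes ranged from 1.10 for fipr-5 to 3.92 for fipr-6. The fipr-6 value was 2.84 without purE replicate 2 and 5.05 without BW25113 replicate 3. The portion assigned to fipr-9 was 43.7%, 47.9% and 32.3% on BW25113 and 34.4%, 11.9% and 25.4% on purE. The portion assigned to fipr-8 was 0%, 0% and 3.65% on BW25113 and 0%, 18.4% and 9.19% on purE, so it was highest in purE replicate 2 and at 0 in 3 libraries.

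The set of fipr-10 with fipr-11 stood at 6.22, 7.47 and 6.87 CPM on BW25113 and at 8.93, 55.3 and 34.7 CPM on purE, a log2 fold change of 2.26 ± 0.57, or 1.67 without purE replicate 2. The set of fipr-1 with fipr-2 stood at 17.8, 25.1 and 35.8 CPM on BW25113 and at 38.4, 64.2 and 52.1 CPM on purE, a log2 fold change of 0.98 ± 0.33. In both sets the purE libraries all exceeded the BW25113 libraries. The set of nlp-27 to nlp-29 stood at 37.7, 53.9 and 53.3 CPM on BW25113 and at 46.7, 86.0 and 110 CPM on purE, with overlap and a log2 fold change of 0.74 ± 0.34. Most of this set was nlp-27, and nlp-29 received between 1.73% and 8.07% of its reads. The gene nlp-28 received 5.07% in BW25113 replicate 1 and 0% in the other 5 libraries. With all 4 sets summed, 20 members or sets were tested, of which edgeR called 0. It found an unadjusted p under 0.05 for 10, beside 2000 of all 12137 genes or sets tested in either direction. This summation was chosen after the data had been seen.

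**Figure D3:**
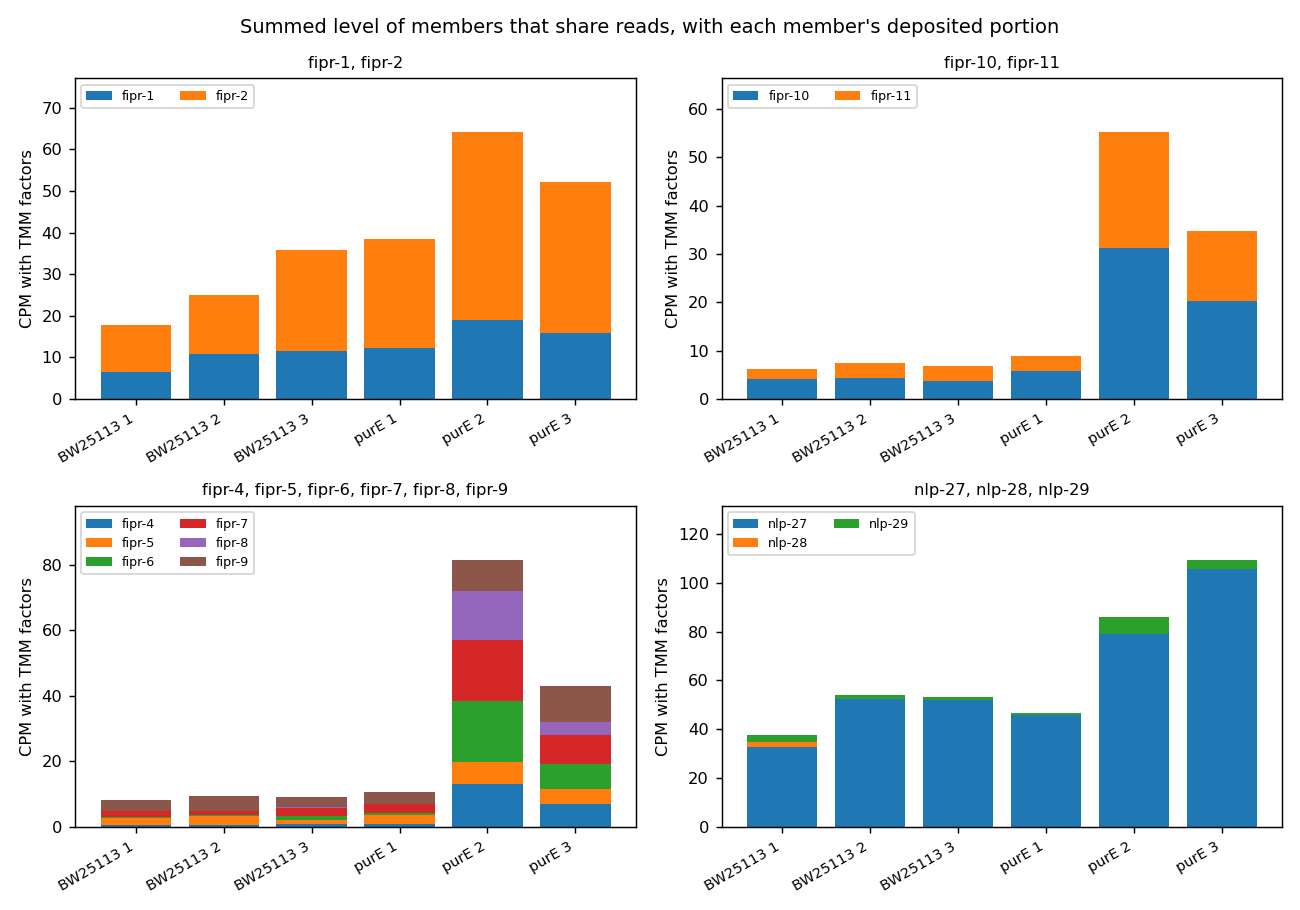
Summed level of the 4 sets of members that share reads, as stacked bars of CPM with TMM factors per library, each colour being the portion deposited for 1 gene. In the set of fipr-4 to fipr-9 the bar stands at 81.6 CPM in purE replicate 2 against 8.24 to 9.23 CPM on BW25113, and the portions of its genes differ between libraries.

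In purE replicate 1, 6 of 15 tested fip and fipr genes lay above every BW25113 library, 8 lay within their range and 1 lay below. Of the 7 nlp genes 1 lay above, 2 within and 4 below, and of the 5 cnc genes 0 lay above, 2 within and 3 below. Of all genes tested, 24.7% lay above, 57.1% within and 18.2% below. In purE replicate 2 all 27 lay above every BW25113 library, against 41.8% of all genes tested. In purE replicate 3 this held for 14 of 15 fip and fipr genes, 6 of 7 nlp genes and 2 of 5 cnc genes, against 34.6% of all genes. The median log2 fold change was 1.67 for the fip and fipr genes, 1.36 for the nlp genes and 0.80 for the cnc genes, beside 0.030 for all genes tested. Without purE replicate 2 the medians were 1.00, 0.73 and -0.26. Members of a subfamily share reads and libraries and are not replicates, and the difference between subfamilies was not tested.

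Summed over all members of a subfamily, tested or not, the cnc genes held 17.9, 22.003 and 11.9 CPM on BW25113 and 12.97, 56.1 and 31.7 CPM on purE. The fip and fipr genes held 42.6, 54.6 and 63.8 CPM on BW25113 and 73.4, 253 and 156 CPM on purE, and the nlp genes held 108, 145 and 152 CPM on BW25113 and 142, 525 and 355 CPM on purE. The sum for fip and fipr was the only one of these 3 in which purE replicate 1 exceeded all BW25113 libraries.

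**Figure D4:**
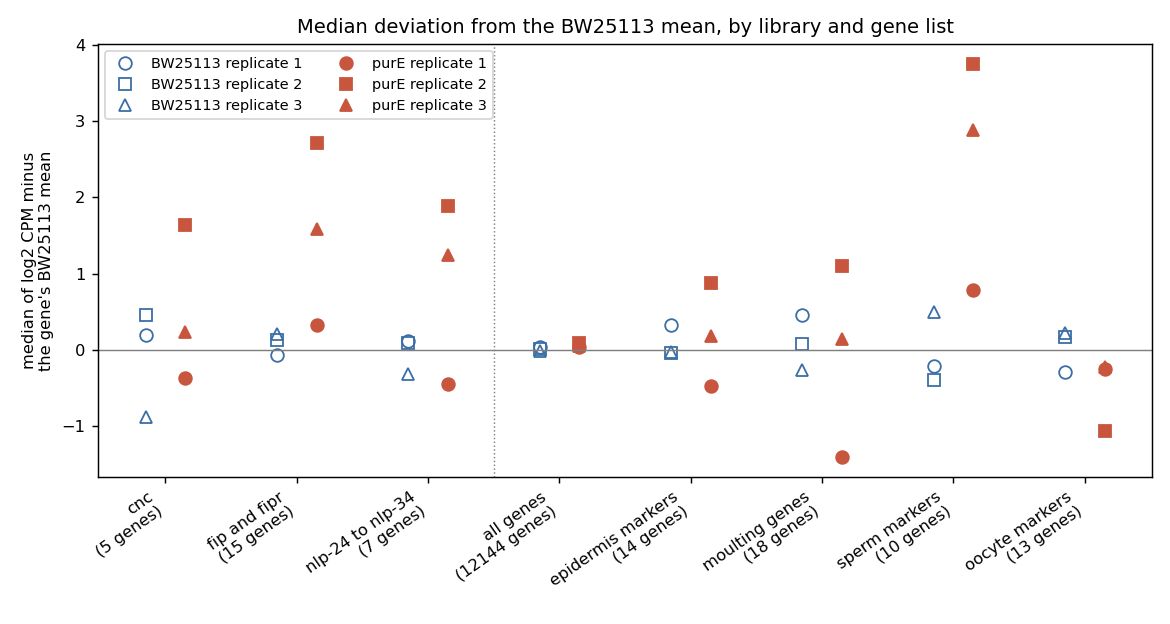
Median, over the tested genes of each list, of a gene's log2 CPM minus its BW25113 mean, by library, for the 3 subfamilies and, right of the dotted line, for all genes and 4 marker lists. Open blue marks are BW25113 and filled red marks purE, with the shape giving the replicate, and purE replicate 2 is the highest mark in every list shown except the oocyte markers, where it is the lowest at -1.06.

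Markers of other cells and of developmental stage also differed between these libraries, not all in the same direction. Of the 10 tested sperm markers 10 had an unadjusted p under 0.05 and a positive value, against 12.7% of all genes. Their median log2 fold change was 2.87, or 2.15 without purE replicate 2. The 13 measured ones summed to between 83.1 and 142 CPM on BW25113 and to 184, 1689 and 849 CPM on purE. The 20 moulting genes, which act when larvae shed the cuticle, summed to between 150 and 236 CPM on BW25113 and to 80.5, 626 and 175 CPM on purE, so that purE replicate 1 was the lowest and purE replicate 2 the highest library. Of the 18 tested moulting genes 14 were highest in purE replicate 2, against 36.02% of all genes tested. In purE replicate 1, 12 of them lay below all BW25113 libraries, against 18.2% of all genes. The median log2 fold change of the moulting genes was 0.59, or -0.26 without purE replicate 2. The 15 epidermis markers summed to between 3548 and 4290 CPM on BW25113 and to 2472, 3846 and 5626 CPM on purE. Of 14 tested ones, 8 were highest in purE replicate 2, against 36.02% of all genes. The lowest library was purE replicate 1 for 6 of 14, beside 1195 of all 12144 genes. The median log2 fold change of the epidermis markers was 0.18, or -0.26 without purE replicate 2. An unadjusted p under 0.05 was found for 2 in the higher direction, against 12.7% of all genes, and for 3 in the lower, against 3.81%. By smallest p these included nhr-25 with -1.52 ± 0.38, the collagen gene rol-6 with 5.62 ± 1.48, or 3.74 without purE replicate 2, and lin-26 with -0.73 ± 0.30. DESeq2 called nhr-25 and rol-6, while edgeR called 0 of the list. All 13 oocyte markers and all 6 vitellogenins, the yolk proteins, were lowest in purE replicate 2, beside 3865 of all 12144 genes tested. Intestine, neuron, pharynx and body wall muscle markers had median log2 fold changes of 0.068, 0.29, 0.53 and 0.44. Of each list, 0 measured markers were at 0 in all libraries, and the part of these lists in the values of the peptide genes was not tested.

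Genes that act upstream of the epidermal peptides were described in the same way. The p38 pathway list had 18 genes, all tested, of which 14 were positive, with a median log2 fold change of 0.31, or 0.20 without purE replicate 2. None was called by edgeR or DESeq2, and 2 of 18 had an unadjusted p under 0.05, both higher, close to the share of 12.7% among all genes. These were the G-protein alpha subunit gene gpa-12, at 1.34, 1.25 and 1.07 CPM on BW25113 and 1.84, 3.64 and 1.93 CPM on purE, and hpd-1, a gene of tyrosine breakdown, at 58.1, 49.9 and 63.5 CPM on BW25113 and 105.6, 69.3 and 79.96 CPM on purE. Neither overlapped between the diets. Their log2 fold changes were 1.013 ± 0.43 and 0.57 ± 0.25. The third by p was dapk-1, a kinase gene whose loss raises nlp-29 expression, with 0.82 ± 0.37. The kinase genes sek-1 and pmk-1 had 0.59 ± 0.34 and -0.59 ± 0.37. The regulators sta-2, snf-12, elt-3 and nipi-3 had 0.23 ± 0.41, 0.40 ± 0.43, 0.051 ± 0.36 and -0.28 ± 0.28. Of the 18 genes, 3 were free of overlap with purE the higher (gpa-12, hpd-1 and dapk-1), against 13.1% of all genes. With purE the lower there were 2, pmk-1 and nsy-1, against 6.68%. The gene pmk-1 stood at 4.92, 4.20 and 4.16 CPM on BW25113 and at 3.93, 2.16 and 2.67 CPM on purE. For nsy-1 the values were 16.3, 17.5 and 21.7 CPM on BW25113 and 12.3, 15.5 and 15.2 CPM on purE.

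In the DBL-1 pathway, 9 of 12 genes were positive, the median log2 fold change was 0.23, or 0.18 without purE replicate 2, and none was called by either tool. An unadjusted p under 0.05 was found for 1 of 12, against 12.7% of all genes in the higher direction. It was the ligand gene dbl-1, at 3.67, 2.86 and 3.51 CPM on BW25113 and 4.89, 8.60 and 5.40 CPM on purE. All its purE values were the higher ones, which held for 1 of 12 genes, against 13.1% of all genes. Its log2 fold change was 0.91 ± 0.36. The transcriptional cofactor gene sma-9 had -0.52 ± 0.28, and lon-1, a target of the pathway, had 0.47 ± 0.39. All purE values of sma-9 were the lower ones, which held for 1 of 12 genes, against 6.68% of all genes. The receptor genes sma-6 and daf-4 had 0.20 ± 0.36 and -0.21 ± 0.25.

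The remaining 19 members did not pass the low-count filter. Among them, cnc-5 and fipr-12 had no read in any library. The genes cnc-6, cnc-7, cnc-9, cnc-11, fip-1, fip-3, fip-7, fipr-23, fipr-24, fipr-26, fipr-28, fipr-29 and nlp-32 had at most 21 counts in a library. Of these, fipr-24 had 16, 6 and 0 counts on BW25113 and 0, 12.2 and 6 on purE. Larger counts in single libraries were found for 4 members, which were chosen after their values were seen. The gene nlp-25 had 1, 3 and 2 counts on BW25113 and 7, 56 and 39 on purE, higher in all purE libraries. Fitted without the filter, its log2 fold change was 4.21 ± 0.91, and edgeR gave an adjusted p of 0.0807, the smallest of any member in that fit. The gene nlp-30 had 9, 8 and 9 counts on BW25113 and 1, 123 and 14 on purE, so that its lowest and highest values were both from purE libraries. The other 2 were fipr-8 and nlp-28, whose reads were shared. In the fit without a filter 39 of 44 members were positive. An unadjusted p under 0.05 was found for 19 in the higher direction and 1, nlp-28, in the lower, beside 2835 of all 17609 genes in either direction.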

How the data were processed

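Estimated counts and FPKM values per gene were deposited by the authors, per the file headers, with 91.0% to 92.2% of a library's counts whole. The submitters' processing notes name WBcel235 as the build. No aligner, counter or strand setting is given in the sources used here. Exons of fip-2, fipr-3, nlp-24 and nlp-26 overlap a gene on the opposite strand, whose reads cannot be told apart from theirs.

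Counts were rounded, and the default filter of edgeR 4.0.16 (R 4.3.3), about 10 counts in at least 3 libraries, left 12144 genes. TMM factors ran from 0.844 to 1.20. Diets were compared with edgeR's quasi-likelihood test (both tails, Benjamini-Hochberg over the genes tested, threshold 0.05). Each SE was derived from the F statistic. A prior count of 2 was used for log2 CPM. The procedure was tested on simulated data. Alternatives were DESeq2 1.42.0, limma-voom and limma on log2(FPKM + 1) (limma 3.58.1), other scalings and filters, the replicate block, and each library left out. Chi-square values per degree of freedom between libraries of a diet were 45.4 to 395, beyond counting error.

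The members and the gene lists were chosen with earlier results of these data known. Named with full values were, per subfamily, the 4 tested members of highest mean CPM and the 3 of smallest p, with nlp-29, nlp-31, cnc-2 and cnc-4. For the pathway lists the 3 genes of smallest p were named, and some regulators were added after their values were seen. Marker lists are given as sums and counts.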

Additional observations from a re-analysis of the deposited data

How the results depend on the processing

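The number of members called was 0 in edgeR and limma under each scaling and filter tried, 9 in DESeq2, and between 0 and 16 when single libraries were left out, with 16 only without purE replicate 1. Members with an unadjusted p under 0.05 numbered 15, beside 2004 of all 12144 genes tested in either direction. Across other settings they ran from 7 in limma-voom, beside 1560 of 12144 genes, to 20 without a low-count filter, beside 2835 of 17609. With a library left out they numbered 9 to 23, where the 23, without purE replicate 1, stood beside 4273 of 12811 genes. Members without overlap between the diets numbered 7. They numbered 5 with the 100 most abundant genes left out, 6 in DESeq2 and 8 with library size alone. With a library left out they numbered 7 to 25, where the 25, without purE replicate 1, stood beside 27.4% of all genes. The median log2 fold change of cnc ran from -0.26 without purE replicate 2 to 1.151 without purE replicate 1, and the cause was not tested. The nlp median of 1.36 was 0.69 in limma-voom, 0.63 on log2(FPKM + 1), 0.84 with the block and 0.73 without purE replicate 2. The fip and fipr median of 1.67 was 1.00 without purE replicate 2 and 2.02 without BW25113 replicate 3. With the replicate number as a block, 0 members were called and 13 had an unadjusted p under 0.05, beside 1566 of all 12144 genes in either direction. Equal numbers do not pair the libraries, since deviations from the diet means correlated at -0.137, -0.170 and 0.136 across genes, and only the libraries numbered 3 correlated best with each other.

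Of 240 values of the 16 named members under an alternative, 212 kept their direction and their side of the threshold, 12 passed the threshold in addition and 16 changed sign. The sign changed for cnc-2 (-0.053 with DESeq2 size factors, -0.16 with library size alone, -0.042 without a filter, -0.047 in DESeq2, -0.40 in limma-voom, -0.31 on log2(FPKM + 1), -0.21 with the block, -0.057 without the 100 most abundant genes, -0.99 to 0.41 with a library left out), nlp-31 (-0.086 in limma-voom, -0.13 on log2(FPKM + 1), -0.91 to 0.63 with a library left out), cnc-3 (-0.60 to 1.151) and cnc-4 (-0.26 to 1.36). The median of all genes was -0.11 on the log2(FPKM + 1) scale, against 0.030 in edgeR. Depth limits the low members: on BW25113, fipr-3 had 7 to 21 counts and fipr-6 had 4.82 to 32.6.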

Other observations

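Genes on the opposite strand of 4 members were measured as well. The gene Y43F8C.3, whose exons overlap those of nlp-26, stood at 12.4, 9.69 and 6.56 CPM on BW25113 and at 5.73, 9.82 and 5.72 CPM on purE, a log2 fold change of -0.43 ± 0.37, whereas nlp-26 had 1.36 ± 0.54. The gene F23D12.11, which overlaps fipr-3, stood at 39.2, 47.2 and 30.1 CPM on BW25113 and at 29.99, 51.3 and 68.5 CPM on purE, with 0.36 ± 0.34, and fipr-3 had 2.75 ± 0.86, or 1.48 without purE replicate 2. The genes glb-15, which overlaps nlp-24, and T27E4.5, which overlaps fip-2, had at most 10 and 6 counts in a library.

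Summed over fip-5 and cnc-8, which lie in 1 cluster on chromosome X, the values were 8.95, 10.6 and 8.20 CPM on BW25113 and 8.78, 30.9 and 24.1 CPM on purE. The nlp-25 and nlp-26 pair summed to 8.10, 6.60 and 7.93 CPM on BW25113 and to 5.70, 30.2 and 27.1 CPM on purE. The cnc cluster summed to 6.94, 8.95 and 2.71 CPM on BW25113 and to 2.94, 22.9 and 5.51 CPM on purE, and in it purE replicate 3 lay within the BW25113 range. In the nlp-27 to nlp-34 cluster, at 44.0, 59.5 and 56.1 CPM on BW25113 and 48.4, 110 and 114 CPM on purE, replicates 2 and 3 of the purE diet were nearly equal.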
